A study of Mus musculus with 2 samples.

Results

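The hormone genes of the gut's endocrine cells were compared between a Stat6 knockout (KO) and a wild-type (WT) mouse intestinal stem cell culture. They were 10 genes chosen by name out of 18944 with values in both libraries, with earlier results of these data known. Of these, 9 encode peptide hormones (Gcg, Pyy, Nts, Cck, Sct, Gip, Sst, Ghrl and Tac1). The other is Tph1, the enzyme that starts serotonin synthesis. The KO group was 1 library from Lgr5GFP-CreERT2 Stat6 KO cells and the WT group 1 library from Lgr5GFP-CreERT2 WT cells, both of 2 months of age by the labels. Both groups thus carried an Lgr5-driven GFP and inducible Cre allele, Lgr5 being the R-spondin receptor that marks crypt stem cells. The labels describe the knockout as made by lentiviral CRISPR/Cas with Stat6 guides followed by a screen for deficient cells, in a medium with EGF, R-spondin 1 and the kinase inhibitor Y27632, and give the same text under both samples. The sources used here do not give whether the WT culture received a virus or whether the KO culture was a single clone.

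Enteroendocrine cells are scattered, hormone-secreting cells of the gut epithelium that arise from crypt stem cells through the transcription factor Neurog3. By their main product they are named L cells (proglucagon and peptide YY), N cells (neurotensin), I cells (cholecystokinin), S cells (secretin), K cells (gastric inhibitory polypeptide), D cells (somatostatin), X cells (ghrelin) and enterochromaffin cells (serotonin and tachykinins), although single cells often make several. STAT6 is the transcription factor that IL-4 and IL-13 activate. The comparison asked how each hormone's transcript differed between the cultures labelled Stat6 KO and WT. Values are in FPKM (fragments per unit of transcript length and of sequencing depth).

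With 1 library per genotype, no difference here has a replicate check, and no test, standard error or p-value was computed. Stat6 itself was at 44.2 FPKM in KO and 41.3 FPKM in WT, which does not check the genotype, since a small deletion need not lower a transcript. Lgr5 was at 1.88 FPKM in KO and 1.79 FPKM in WT, and the endocrine granule genes Chgb (162 and 324 FPKM in KO and WT) and Chga (58.6 and 75.0 FPKM) were well above it, so transcripts of differentiated endocrine cells were present in both stem cell cultures. The epithelial list of 5 genes had none past 2-fold (median log2 ratio -0.22), from the keratins Krt18 (586 FPKM in KO, 1087 FPKM in WT, log2 ratio -0.89) and Krt8 (-0.57) to Epcam (-0.12) and Krt20 (0.65). The step size of low FPKM values put the depth at about 19800000 reads in KO and 19900000 reads in WT. In WT double that depth put a larger share of the values used on whole reads (93.3% against 87.1%), so the WT depth is not settled.

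Transcripts of Gcg (L cells), Nts (N cells) and the serotonin enzyme were much lower in the KO library. Those of I, K and D cells and the tachykinin gene were moderately lower, and those of S and X cells were close to their WT level. Pyy, the other L cell gene, was not clearly separate from Sst of D cells. Their KO to WT ratios were 0.464 and 0.557. The intervals for counting error alone, 0.385 to 0.558 for Pyy and 0.476 to 0.653 for Sst, overlapped. Of the 10 genes, 4 were at least 2-fold lower in KO (Tph1, Gcg, Nts and Pyy), 0 were at least 2-fold higher and 6 stayed within 2-fold, where 2-fold means a log2 ratio of KO to WT of at least 1 in size after 1 was added to both FPKM values. In the background of 12079 genes with 1 FPKM or more in at least 1 library, 2.18% were that much lower and 2.44% that much higher. All 10 hormone genes were above 1 FPKM in both libraries. At 1.5-fold 8 of the 10 were lower and 0 higher, where 11.4% of all measured genes were lower and 5.7% higher. At 4-fold 0 of the 10 were lower and 0 higher, where 0.224% of all measured genes were lower and 0.422% higher. In bulk RNA, fewer cells of a type and less RNA per cell cannot be told apart.

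The deposited FPKM values put Cck, Gcg, Sct and Tph1 highest in WT, in that order, and Cck, Sct, Gcg and Ghrl highest in KO. Over the 10 genes the FPKM ran from 15.2 to 103 in KO and from 25.9 to 169 in WT. Tph1, the next after Sct in WT, was the lowest of all in KO, while Ghrl, the lowest in WT, followed Gcg in KO. The 10 genes together held 0.0711% of all FPKM in KO and 0.127% in WT. With 1 library each there is no spread to separate neighbours in these orders, and Gip and Sst at 18.54 and 18.52 FPKM in KO were all but equal.

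**Figure D1:**
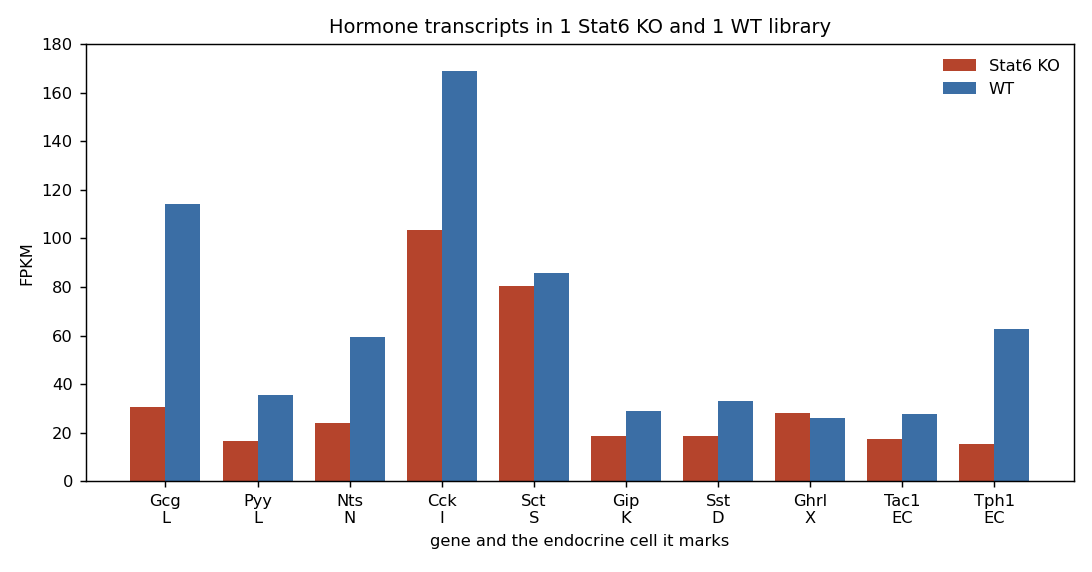
Bars show the FPKM of each of the 10 genes in the Stat6 KO library (red) and the WT library (blue), with the endocrine cell each gene marks under its name (EC, enterochromaffin). Each bar is 1 library, so there are no error bars. Gcg (30.7 in KO, 114 in WT) and Tph1 (15.2 in KO, 62.7 in WT) differ most as a ratio, and Sct (80.4 in KO, 85.6 in WT) and Ghrl (28.2 in KO, 25.9 in WT) least.

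The proximal promoters of the 4 genes past 2-fold and of the 2 genes nearest to their WT level are shown to place the genes compared side by side. Each is the 250 bases that end just before the outermost transcription start listed, on the gene's own strand, from RefSeq on build GRCm38.p6. The intervals are chr2:62483654-62483903 (minus strand) for Gcg, chr10:102490419-102490668 (minus) for Nts, chr11:102107833-102108082 (minus) for Pyy, chr7:46672538-46672787 (minus) for Tph1, chr7:141279134-141279383 (minus) for Sct and chr6:113719912-113720161 (minus) for Ghrl. Capitals mark the letters TATAAA, the TATA box, and CANNTG, the E-box that basic helix-loop-helix factors such as Neurog3 and Neurod1 can bind, in either direction.
Gcg: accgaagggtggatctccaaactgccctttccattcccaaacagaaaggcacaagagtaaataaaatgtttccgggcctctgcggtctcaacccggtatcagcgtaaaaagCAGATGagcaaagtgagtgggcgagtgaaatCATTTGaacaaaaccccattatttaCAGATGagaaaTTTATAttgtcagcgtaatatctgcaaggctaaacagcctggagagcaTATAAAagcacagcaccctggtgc
Nts: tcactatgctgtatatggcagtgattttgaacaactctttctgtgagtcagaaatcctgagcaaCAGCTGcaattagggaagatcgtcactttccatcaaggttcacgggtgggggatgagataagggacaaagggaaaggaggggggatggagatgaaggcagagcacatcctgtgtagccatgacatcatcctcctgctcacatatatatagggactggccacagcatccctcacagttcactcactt
Pyy: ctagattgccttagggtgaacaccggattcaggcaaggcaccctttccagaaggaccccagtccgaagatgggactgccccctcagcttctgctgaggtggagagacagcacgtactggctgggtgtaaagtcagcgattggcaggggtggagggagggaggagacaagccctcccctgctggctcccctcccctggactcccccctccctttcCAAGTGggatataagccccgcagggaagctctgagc
Tph1: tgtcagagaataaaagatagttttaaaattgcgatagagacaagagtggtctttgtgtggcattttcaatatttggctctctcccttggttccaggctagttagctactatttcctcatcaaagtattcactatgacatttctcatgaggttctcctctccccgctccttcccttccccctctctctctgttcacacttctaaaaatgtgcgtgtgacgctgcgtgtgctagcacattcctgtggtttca
Sct: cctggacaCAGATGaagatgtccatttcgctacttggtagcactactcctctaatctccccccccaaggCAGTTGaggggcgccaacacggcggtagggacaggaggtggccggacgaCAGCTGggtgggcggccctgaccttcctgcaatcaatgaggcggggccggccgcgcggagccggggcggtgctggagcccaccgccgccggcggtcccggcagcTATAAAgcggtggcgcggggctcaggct
Ghrl: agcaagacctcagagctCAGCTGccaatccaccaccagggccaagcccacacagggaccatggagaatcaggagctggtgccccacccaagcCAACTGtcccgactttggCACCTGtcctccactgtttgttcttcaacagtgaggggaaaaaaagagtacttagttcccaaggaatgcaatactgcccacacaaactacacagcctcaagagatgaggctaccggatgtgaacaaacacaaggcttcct

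All 10 genes had such a window, as did 14547 genes of the tables. TATAAA or its reverse complement stood in 2 of the 10 windows, those of Gcg and Sct, and in 8.55% of all windows. In Sct the match began 28 bases before the start and in Gcg the nearer match began 24 bases before it, and the 2 genes had very different log2 ratios. An E-box stood in 9 of the 10 windows, all but that of Tph1, and in 60.4% of all windows. The marked E-boxes and TATA boxes did not overlap. TTCNNNNGAA, a palindrome of the spacing that STAT6 can bind, stood in 0 of the 10 windows and in 4.67% of all windows, and TTCNNNGAA, the spacing common to other STAT factors, in 0 of 10 and in 6.23%. The cyclic AMP response element TGACGTCA stood in the window of Sst alone among the 10, beginning 48 bases before the start, and in 2.43% of all windows. Several genes have more listed starts, 15 in all for the 10 genes, and over these TTCNNNNGAA stood in 0 windows and TTCNNNGAA in 1, at an inner start of Ghrl. These matches describe the letters of a short window and nothing about binding.

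Gcg, Pyy and Nts, the genes of L and N cells, were all at least 2-fold lower in KO. Gcg encodes proglucagon, from which L cells cut glucagon-like peptides 1 and 2. It was at 30.66 FPKM in KO and 114.12 FPKM in WT, a log2 ratio of -1.86, and ranked 2742nd of all genes in KO and 739th in WT. Of the measured genes 0.298% had a lower log2 ratio. The FPKM of KO was 0.269 times that of WT, with a 95% interval of 0.246 to 0.294 for counting error alone, from about 638 reads in KO and 2383 reads in WT. That interval, like the others here, was made from the estimated depth and a later annotation's transcript length, treats reads as independent molecules, and says nothing of differences between cultures of 1 genotype.

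Nts encodes neurotensin, a peptide that slows gut movement and aids fat uptake. It was at 24.01 FPKM in KO and 59.59 FPKM in WT, with a log2 ratio of -1.28 and a KO to WT ratio of 0.403 (counting interval 0.365 to 0.444). Pyy encodes peptide YY, which L cells release with the glucagon-like peptides and which curbs appetite. It was at 16.54 FPKM in KO and 35.68 FPKM in WT, with a log2 ratio of -1.06 and a KO to WT ratio of 0.464 (0.385 to 0.558). Pyy was just past 2-fold, and came to lie within it under a larger pseudocount or another scaling, at log2 ratios up to -0.84. Gcg was lower by more than Pyy, the other L cell gene, so that the ratio of Gcg to Pyy FPKM was 1.85 in KO and 3.20 in WT. Such ratios within a library do not depend on how the library was scaled.

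Tph1 and Tac1, both genes of enterochromaffin cells, differed from each other. Tph1 encodes tryptophan hydroxylase 1, which carries out the rate-limiting step of serotonin synthesis outside the brain. It was at 15.17 FPKM in KO and 62.72 FPKM in WT, a log2 ratio of -1.98, the lowest of the 10, and 0.248% of the measured genes had a lower one. The KO to WT ratio was 0.242 (0.228 to 0.257), from about 1356 reads in KO and 5635 reads in WT. Tac1 encodes substance P and neurokinin A, tachykinins that contract gut muscle. It was at 17.60 FPKM in KO and 27.90 FPKM in WT, a log2 ratio of -0.64, within 2-fold, with a KO to WT ratio of 0.631 (0.557 to 0.715). The ratio of Tph1 to Tac1 FPKM was 0.862 in KO and 2.25 in WT.

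Cck, Gip and Sst were moderately lower in KO. Cck encodes cholecystokinin, which I cells release on fat and protein to empty the gallbladder and stimulate the pancreas. It was the most abundant of the 10 in both libraries, at 103.36 FPKM in KO and 168.94 FPKM in WT, with a log2 ratio of -0.70 and a KO to WT ratio of 0.612 (0.575 to 0.653). The RefSeq annotation places a long non-coding RNA gene, Gm38661, over Cck, and the sources used here do not give whether reads were counted by strand, so reads of the pair cannot be told apart. Gip encodes the K cell hormone that boosts insulin release after a meal. It was at 18.54 FPKM in KO and 29.04 FPKM in WT, with a log2 ratio of -0.62 and a KO to WT ratio of 0.638 (0.539 to 0.758). Sst encodes somatostatin, with which D cells inhibit neighbouring endocrine cells. It was at 18.52 FPKM in KO and 33.23 FPKM in WT, with a log2 ratio of -0.81 and a KO to WT ratio of 0.557 (0.476 to 0.653). All 3 were within 2-fold and below the all-gene median log2 ratio, which was -0.18.

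Sct and Ghrl were the 2 genes above that median. Sct encodes secretin, which makes the pancreas release bicarbonate. It was at 80.41 FPKM in KO and 85.60 FPKM in WT, with a log2 ratio of -0.09 that became 0.14 when KO was scaled by TMM (a trimmed mean of log ratios) and 0.09 when the median of all genes was set to 0. Its KO to WT ratio was 0.939 as deposited, with a counting interval of 0.853 to 1.04 that spans 1, and 1.10 (1.00 to 1.22) with the TMM factor. Ghrl encodes ghrelin, the appetite-raising hormone of X cells. It was at 28.15 FPKM in KO and 25.87 FPKM in WT, with a log2 ratio of 0.12 and a KO to WT ratio of 1.09 (0.918 to 1.30) as deposited, which also spans 1, and of 1.28 (1.08 to 1.53) with the TMM factor, which does not. The scaling thus decides whether these 2 genes differ beyond counting error. Ghrl was the only gene of the 10 with a higher FPKM in KO.

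**Figure D2:**
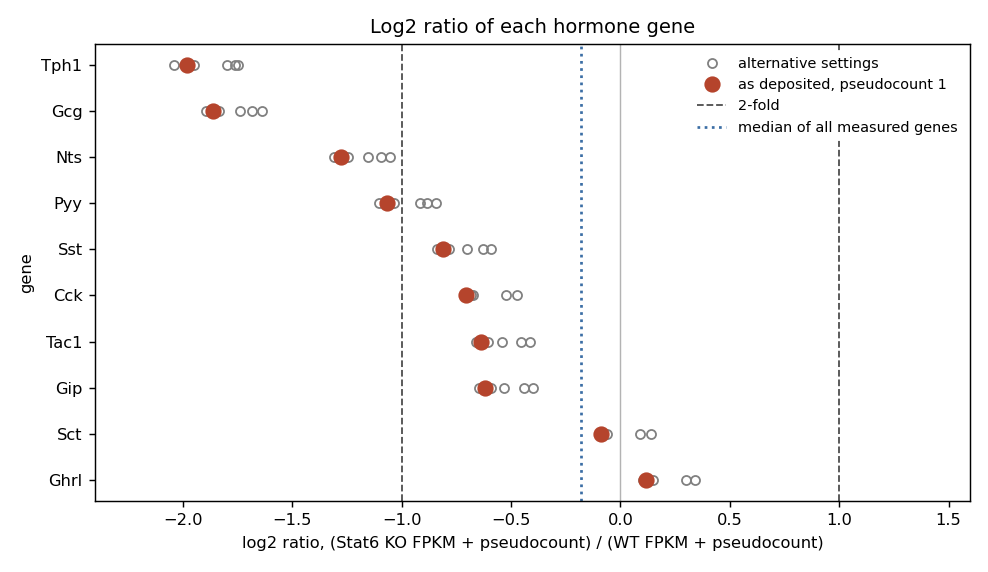
Each row is a gene and the horizontal axis its log2 ratio of Stat6 KO to WT. Filled points are the deposited values with a pseudocount of 1, open points the 8 alternative settings, dashed lines 2-fold and the dotted line the median of all measured genes (-0.18). Tph1, Gcg and Nts stay left of the 2-fold line in every setting drawn, Pyy crosses it, and Sct changes sign.

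The median log2 ratio of the 10 genes was -0.76, against -0.18 for all measured genes, and 8 of the 10 lay below that all-gene median. The scaling matters for this reading, because a TMM factor moved the median of all genes by 0.20, to 0.02. Among all measured genes the calls were 52.9% higher and 47.1% lower as deposited, and 72.0% higher and 28.0% lower with that factor. The median of the hormone genes with that factor was -0.53, and Tph1, Gcg and Nts stayed at least 2-fold lower.

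Because the genes differed unequally, the make-up of the hormone transcripts differed too. The 9 peptide hormone genes summed to 338 FPKM in KO and 580 FPKM in WT. Gcg made up 9.08% of that sum in KO and 19.7% in WT, and Gcg, Pyy and Nts together 21.1% in KO and 36.1% in WT. Sct made up 23.8% in KO and 14.8% in WT, and Ghrl 8.33% in KO and 4.46% in WT, which put L and N cell transcripts on the smaller side in KO and S and X cell transcripts on the larger. The share of Cck was 30.6% in KO and 29.1% in WT, and those of Gip, Sst and Tac1 lay between 4.81% and 5.73% in both libraries. The ratio of Gcg to Sct FPKM was 0.381 in KO and 1.33 in WT, and that of Gcg to Cck 0.297 in KO and 0.676 in WT.

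**Figure D3:**
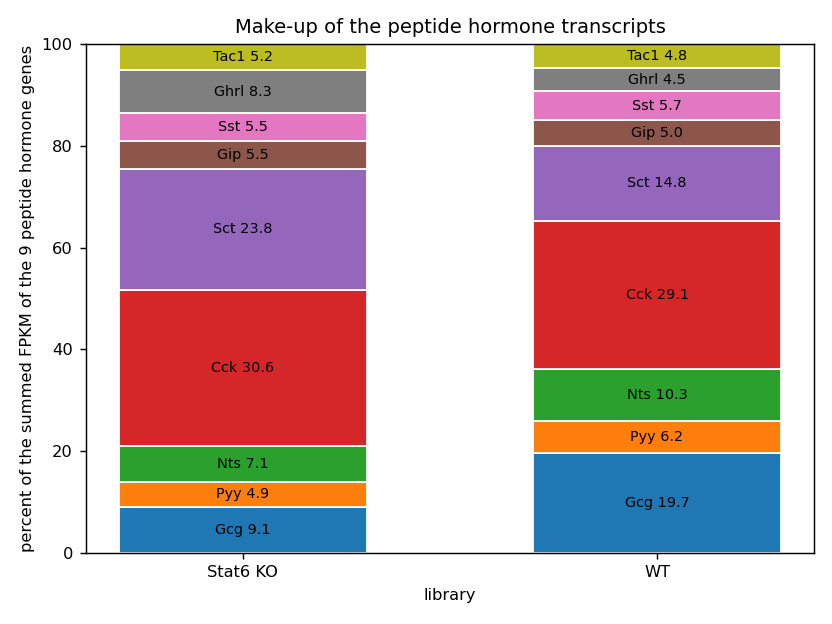
Stacked bars show the percent that each of the 9 peptide hormone genes makes up of their summed FPKM in the Stat6 KO and the WT library, from Gcg at the bottom to Tac1 at the top. Gcg fills 9.1% of the KO bar and 19.7% of the WT bar, and Sct 23.8% and 14.8%.

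Several genes for the secretory granules and for cutting prohormones, shared by most endocrine cells, were also lower in KO. Of 10 measured members of the list of 11, 3 were at least 2-fold lower and 0 higher, with a median of -0.82, and 8 lay below the median of all genes. These were Vgf, a granule protein (3.86 FPKM in KO, 11.4 FPKM in WT, log2 ratio -1.35), the secretogranin Scg2 (9.79 and 25.0 FPKM in KO and WT, -1.27) and the carboxypeptidase Cpe, which trims cut prohormones (18.4 and 41.6 FPKM, -1.13). Cpe was within 2-fold with the TMM factor (-0.91) and with the median of all genes set to 0 (-0.95), which leaves 2 genes called. Chgb, a chromogranin, had a log2 ratio of -0.99. Chga, the chromogranin most used as an endocrine marker, had a log2 ratio of -0.35, and Pcsk1, the convertase that cuts proglucagon in L cells, was at 11.0 FPKM in KO and 18.3 FPKM in WT (-0.68). Set against Chga within each library, Gcg was 0.523 times Chga in KO and 1.52 times in WT, Tph1 0.259 and 0.836 times, and Sct 1.37 and 1.14 times. Per Chga all of the 10 but Sct and Ghrl (0.480 times in KO, 0.345 times in WT) were lower in KO. Per Chgb, which was itself lower, Gcg (0.189 times in KO, 0.352 times in WT), Tph1 (0.0935 and 0.194 times), Nts (0.148 and 0.184 times) and Pyy (0.102 and 0.110 times) were lower in KO and the other 6 higher.

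The transcription factors of the endocrine lineage were not lower as a list. Of 19 genes 11 were measured, 0 were past 2-fold in either direction, and their median of -0.19 was next to that of all genes. The highest was Neurog3, the factor that starts the lineage, at 6.07 FPKM in KO and 3.01 FPKM in WT (log2 ratio 0.82, or 1.02 with a TMM factor, which puts it past 2-fold). The lowest were Lmx1a and the forkhead factor Foxa1. Lmx1a, which in mouse acts in enterochromaffin cells and favours Tph1 expression, was at 0.77 FPKM in KO and 1.81 FPKM in WT (-0.67). With a pseudocount of 0.1 the log2 ratio of Lmx1a was -1.13, past 2-fold. Foxa1 was at 14.7 FPKM in KO and 21.7 FPKM in WT (-0.53). Pax6 was at -0.08. Many of these factors were near 1 FPKM, so their ratios are loosely fixed.

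Genes of serotonin handling other than Tph1 lay on both sides. Of 8 measured members of the list of 9, 0 were at least 2-fold lower and 4 at least 2-fold higher, with a median of 0.63. Ddc, the decarboxylase that turns the product of Tph1 into serotonin and is also made outside endocrine cells, was at 118.9 FPKM in KO and 44.6 FPKM in WT (log2 ratio 1.40). The monoamine oxidases Maob (32.3 and 2.44 FPKM in KO and WT, 3.27) and Maoa (366 and 137 FPKM, 1.41), which break serotonin down, and the reuptake transporter Slc6a4 (15.5 and 7.14 FPKM, 1.02, and 0.76 with a pseudocount of 5) were the others. Slc18a1, the transporter that loads serotonin into the granules of enterochromaffin cells, was at 9.63 FPKM in KO and 9.37 FPKM in WT (0.04). The lowest was Slc18a2, a related transporter near the minimum level, at 0.62 FPKM in KO and 1.36 FPKM in WT (-0.54), and it was the 1 gene of the list at least 2-fold lower with a pseudocount of 0.1. Gch1, which makes the cofactor of Tph1, was at -0.21. The ratio of Tph1 to Ddc FPKM was 0.128 in KO and 1.41 in WT.

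Membrane enzymes that cut peptide hormones were higher in KO as well. Of 5 measured members of the list of 6, 4 were at least 2-fold higher and 0 lower, with a median of 2.63. Dpp4, which inactivates glucagon-like peptide 1 and gastric inhibitory polypeptide, was at 74.4 FPKM in KO and 18.8 FPKM in WT (log2 ratio 1.93). The peptidases Mme, Enpep and Ace had log2 ratios of 2.99, 2.63 and 2.63, and Mboat4, the enzyme that acylates ghrelin, was below 1 FPKM in both libraries. Per FPKM of Gcg there were 2.43 FPKM of Dpp4 in KO and 0.165 FPKM in WT.

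**Figure D4:**
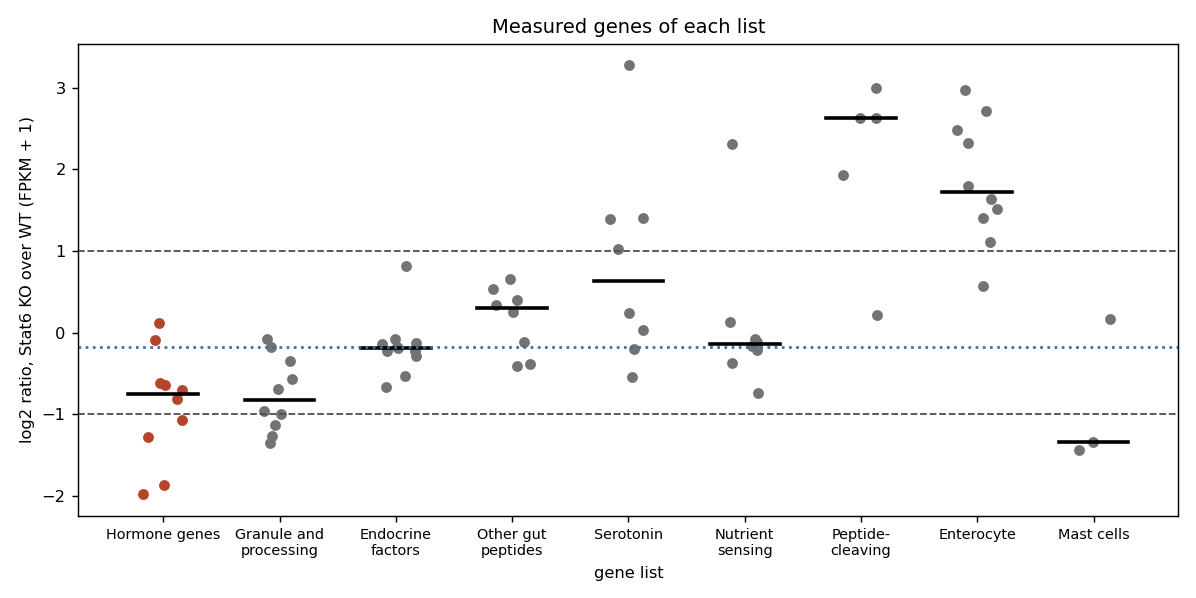
Points are the log2 ratios of Stat6 KO to WT of the measured genes in each list, with the hormone genes in red, and black bars are list medians. Dashed lines mark 2-fold and the dotted line the median of all genes (-0.18). The hormone and granule lists centre below that line (-0.76 and -0.82), the endocrine factors on it (-0.19), and the serotonin, peptide-cleaving and enterocyte lists above it (0.63, 2.63 and 1.72).

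Among markers of other epithelial cells, those of enterocytes differed most between the libraries. Of the 10 enterocyte genes, which mark the nutrient-absorbing cells, 9 stood at least 2-fold higher in KO, with 0 lower (median 1.72), and they summed to 17489 FPKM in KO and 5030 FPKM in WT. Those named by the rule were the lactase Lct (2.98), the apolipoprotein Apoa1 (2.71), the fatty acid carrier Fabp2 (2.48) and sucrase-isomaltase, Sis (2.32). Ddc, Maoa, Maob, Slc6a4 and the peptidases are also made by enterocytes, and the part of the enterocyte difference in their values, or in those of the hormone genes, was not tested. Other epithelial lists had few genes past 2-fold. The goblet list (7 genes, median 0.42) had Clca1 higher (1.52) and the mucin-folding enzyme Agr2 lower (-1.04, but -0.81 with the TMM factor and -0.86 with the centred median), with Muc2 at 0.72 and Spink4 at -0.42. In the Paneth list (7 genes, median 0.29), Pla2g2a was lower (-1.08, but -0.85 and -0.90 with those settings), with Lyz1 at 0.40, Itln1 at 0.37 and Mmp7 at 0.30. The tuft list (5 measured, median -0.16, from Alox5ap at 0.40 and Dclk1 at 0.28 to Pou2f3 at -0.21 and Avil at -0.63) and the stem cell list (6 genes, median -0.21, from Smoc2 at 0.19 and Lgr5 at 0.05 to Ascl2 at -0.71 and Cdca7 at -0.94) had none.

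Hormone genes are also used by cells outside the epithelium. Mast cells make Tph1, and of 9 mast cell markers 3 were measured. The mucosal proteases Mcpt1 (0.90 FPKM in KO, 4.16 FPKM in WT, log2 ratio -1.44) and Mcpt2 (0.48 and 2.74 FPKM in KO and WT, -1.34) were at least 2-fold lower in KO, and Kit was at 0.17. The 9 markers summed to 6.90 FPKM in KO and 11.7 FPKM in WT. The lower KO sum came mainly from Mcpt1 and Mcpt2, since Kit, the most abundant marker, was higher in KO. The unmeasured markers, all below 1 FPKM, went either way. The receptor subunit Ms4a2 (0 in KO, 0.06 FPKM in WT) and Cpa3 (0.14 and 0.28 FPKM in KO and WT) were lower in KO. Fcer1a (0.1 FPKM in KO, 0 in WT), Mcpt4 (0.05 FPKM and 0) and Cma1 (0.14 and 0.1 FPKM) were higher in KO. The tryptase Tpsb2 was listed at 0 in both libraries. Enteric neurons use Tac1, Nts, Sst and Cck. Of 10 neuron and glia markers 5 were measured, 0 were past 2-fold (median -0.58), and the list summed to 12.1 FPKM in KO and 16.0 FPKM in WT. Named by the rule were Tubb3 (0.44), Ret (0.00), Sox10 (-0.68) and Prph (-0.68), and the glial marker Gfap was listed at 0 in KO and at 0.02 FPKM in WT. The part of mast cells, neurons and glia in the hormone values was not tested. Pancreas and stomach lists had 2 and 5 genes with values, and none of them reached 1 FPKM.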

How the data were processed

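Per the labels' protocols, total RNA was sequenced by BGI on a BGISEQ-500 with unpaired reads. The authors deposited 1 FPKM value per gene and library, per the file headers, with 2 decimals. RSEM, Bowtie2, HISAT and build mm9 are named in the submitters' processing notes, and the sources used here do not give versions, roles or the gene annotation. Since the FPKM scale rests on a library's total, abundant genes that differ shift all other values. No file gave counts, so no count model was fitted.

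The 2 tables were joined on Entrez number. The log2 ratio is log2((KO FPKM + 1)/(WT FPKM + 1)), which understates changes of low genes, over the 12079 genes with 1 FPKM or more in at least 1 library. A gene was called at a log2 ratio of at least 1 in size. Groups came from the genotype label. The fold calls were tested on simulated data with counting error only and with planted changes well past the threshold. That test does not cover changes near the threshold or differences between cultures. The TMM factor was checked only for following a scaling of all KO values, an outcome that its formula fixes. The other calculations were not tested.

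Depth was found by searching 10000000 to 30000000 reads, with 0 to 49 bases taken off each length, for the value that puts most short RNA genes of up to 5 reads within 0.1 read of a whole number. The search gave 19800000 reads in KO (35 bases, 88.7% of 124 values whole) and 19900000 reads in WT (36 bases, 87.1% of 140 values). At double the depth the share was 83.2% in KO and 93.3% in WT. Exact whole numbers of reads stay whole at double the depth, but there the 0.1 read tolerance is harder to meet. The limit of 5 reads also takes a different set of values. These shares therefore cannot settle whether a library was deeper. If WT was deeper, the intervals are wider than they need be. Intervals are exact binomial ones at 95%, turned into ratios, with GENCODE M21 transcript lengths.

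The members and lists were chosen with earlier results of these data known. The naming rule took all 10 hormone genes, and of each other list the 2 highest and 2 lowest log2 ratios, or the 4 largest in size where genes past 2-fold lay on 1 side. Chga, Pcsk1, Slc18a1, Slc18a2, Gch1, Mboat4, Insl5 and Gfap were named after their values were seen. So were the mast cell markers Tpsb2, Ms4a2, Cpa3, Fcer1a, Mcpt4 and Cma1. Python 3.11.15, pandas 2.3.3, NumPy 2.4.6, SciPy 1.17.1 and Matplotlib 3.10.9 were used.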

Additional observations from a re-analysis of the deposited data

How the results depend on the processing

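Other settings were pseudocounts of 0.1 and 5, a TMM factor (trims of 30% and 5%), the median of all genes set to 0, a total without 85 ribosomal protein genes and the 20 most abundant genes, no minimum level, minima of 5 FPKM in at least 1 library or 1 FPKM in both, thresholds of 1.5-fold and 4-fold, and the mean over the hormone genes. Under the 8 settings that keep the threshold, all 80 values of the 10 hormone genes stayed within 1.5-fold of their main value. The settings that change only the minimum level could not move any of these values, since all 10 genes passed each minimum. The scalings divided KO by a common factor, 0.851 for TMM and 0.979 for the reduced total, or shifted all log2 ratios by 0.18. Each is under 1.5-fold, so the scalings could not fail this check either. The pseudocounts had little room to act on genes at 15.2 FPKM or more. The 80 values are therefore no check of robustness. The count of hormone genes at least 2-fold lower was 3 or 4, Pyy being the gene lost with the pseudocount of 5, the TMM factor and the centred median, and the count higher was 0. With a threshold of 1.5-fold 8 were lower, and with 4-fold 0, where 0.224% of all genes were that much lower. The median of the hormone genes ran from -0.77 to -0.53 and the mean was -0.89. Among all genes, 1381 were lower and 689 higher at 1.5-fold, and 27 and 51 at 4-fold. At 2-fold, lower genes numbered 604 with the pseudocount of 0.1, 63 with 5 (and 144 higher), 171 with the TMM factor, 160 with the centred median, 150 with the 5 FPKM minimum and 165 with 1 FPKM in both. With the pseudocount of 5, Mcpt1 (-0.63) and Mcpt2 (-0.50) lay within 2-fold, and 1 granule gene in place of 3 was at least 2-fold lower. The median of the nutrient sensing list, -0.14, was 0.04 with the centred median and 1.22 with the 5 FPKM minimum, which leaves fewer genes. Without ribosomal and top genes in the denominator, the hormone genes held 0.0922% of FPKM in KO and 0.164% in WT. No paired analysis was possible because each genotype has 1 library. The lack of replicates, the estimated depth and unknown transcript lengths limit every value.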

Other observations

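Other peptide genes of the gut lay on both sides of their WT level. Of 19 fixed, 16 had values and 8 were measured, with 0 past 2-fold and a median log2 ratio of 0.30. Guca2b, which encodes uroguanylin, a regulator of fluid secretion made mainly by enterocytes, was at 308.9 FPKM in KO and 195.5 FPKM in WT (0.66), and the enkephalin gene Penk at 1.48 FPKM in KO and 0.71 FPKM in WT (0.54). The neuromedin genes were lowest, Nmb at 0.98 FPKM in KO and 1.62 FPKM in WT (-0.40) and Nmu at 0.69 FPKM in KO and 1.21 FPKM in WT (-0.39). Without a pseudocount the KO to WT ratios were 0.605 for Nmb and 0.570 for Nmu. On that measure Penk was at 2.08, past 2-fold, and Guca2b at 1.58. Nmb, Nmu and Penk were near the minimum level, so their ratios are loosely fixed. Insl5, a hormone of colonic L cells, was listed at 0 in KO and at 0.15 FPKM in WT. Both values are below the minimum level, where the other unmeasured peptides of the list went either way.

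Receptors and sensors around the hormones were mostly near or below the 1 FPKM minimum. Of 21 receptor genes for the hormones and serotonin, only the somatostatin receptor Sstr5 was measured, at 0.35 FPKM in KO and 1.03 FPKM in WT (-0.59). Among 8 measured nutrient sensing genes 1 stood at least 2-fold higher in KO, with 0 lower (median -0.14). That was Slc5a1, the sodium and glucose cotransporter that enterocytes also use, at 196.7 FPKM in KO and 38.9 FPKM in WT (2.31). Trpa1, an irritant-sensing channel of mouse enterochromaffin cells, was at 0.54 FPKM in KO and 1.58 FPKM in WT (-0.74). With a pseudocount of 0.1 the log2 ratios of Trpa1 (-1.39) and Sstr5 (-1.33) were past 2-fold. Abcc8 and Tas1r3 were at -0.37 and -0.21.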
